A study of Mus musculus with 14 samples.

Results

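Type I interferon-stimulated genes were examined as a list of 47 genes, chosen by name from the 21205 genes of the count table, in cells from subcutaneous YUMM1.7 tumours of female mice, each sorted into its own well as a cDC1 (type 1 conventional dendritic cell). YUMM1.7 is a mouse melanoma line, and cDC1 are dendritic cells that take up dying cells and present their antigens to CD8 T cells. The 555 cells came from 14 plates, and each plate held cells of 1 tumour of 1 mouse, which made the plate the replicate. The study asked how an NF-kB and IRF1 axis acts in cDC1 against tumours, and the labels give 4 genotypes. Irf1_FF (4 plates, 165 cells) carried floxed Irf1 and served as control for Irf1_dXCR1 (5 plates, 223 cells), named for loss of Irf1 in XCR1-expressing cells. Ikbkb_FF (1 plate, 34 cells) carried floxed Ikbkb, which encodes a kinase of the NF-kB pathway, and served as control for Ikbkb_dXCR1 (4 plates, 133 cells). All Irf1 mice were 6 weeks old by the deposited cell annotation. Ikbkb_FF 1 and Ikbkb_dXCR1 1 and 2 were 8 weeks old, and Ikbkb_dXCR1 3 and 4 were 6 weeks old. The Irf1 and the Ikbkb plates belong to different experiments in the labels and were not compared with each other. The labels do not say which cells outside the XCR1 lineage kept the floxed gene, and counts of 5' transcript ends do not show whether an exon was deleted, so the level of Irf1 or Ikbkb does not check a label.

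Type I interferons bind the receptor IFNAR1 and IFNAR2, whose kinases JAK1 and TYK2 activate transcription factors in the cell. These bind interferon-stimulated response elements (ISRE) in the promoters of antiviral genes, and IRF family members can bind the same elements. In dendritic cells, type I interferon is known to promote cross-presentation of tumour antigen. The 47 genes include enzymes that attach or remove the ubiquitin-like protein ISG15, oligoadenylate synthases that detect double-stranded RNA, IFIT proteins that bind viral RNA, RNA and DNA sensors, and membrane proteins that restrict virus entry or release.

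Promoter sequences are shown for 5 of the 6 members that passed the test between Ccr7+ and Xcr1+ Ccr7- cells or between ages over all cells; Ifi27l2a is the other. They run from 250 bases before to 50 bases after the RefSeq gene start (RefSeq, GRCm38.p6), with matches to the ISRE letters on either strand in capitals (GAAA, any 2 bases, and GAAA again). Isg15 (chr4:156200769-156201068, minus strand) encodes the ubiquitin-like modifier, Ifi205 (chr1:174031706-174032005, minus strand) a nuclear protein of the DNA-binding HIN-200 family, and Isg20 (chr7:78913174-78913473, plus strand, 1 of 3 entries) an exonuclease that degrades single-stranded RNA. Oas3 (chr5:120777610-120777909, minus strand) encodes an oligoadenylate synthase and Phf11d (chr14:59365441-59365740, minus strand) a PHD finger protein. They are printed 5' to 3' on the strand of the gene.
Isg15: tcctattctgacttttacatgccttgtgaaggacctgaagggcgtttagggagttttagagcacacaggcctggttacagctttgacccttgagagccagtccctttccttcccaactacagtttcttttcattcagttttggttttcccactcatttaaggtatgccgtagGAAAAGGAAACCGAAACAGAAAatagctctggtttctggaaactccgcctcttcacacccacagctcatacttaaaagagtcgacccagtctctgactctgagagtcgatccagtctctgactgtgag
Ifi205: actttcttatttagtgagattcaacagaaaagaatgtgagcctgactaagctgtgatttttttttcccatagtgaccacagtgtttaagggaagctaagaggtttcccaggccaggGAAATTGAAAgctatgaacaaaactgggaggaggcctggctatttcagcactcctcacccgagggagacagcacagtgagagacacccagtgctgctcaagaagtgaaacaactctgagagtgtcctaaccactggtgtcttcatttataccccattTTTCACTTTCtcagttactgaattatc
Isg20: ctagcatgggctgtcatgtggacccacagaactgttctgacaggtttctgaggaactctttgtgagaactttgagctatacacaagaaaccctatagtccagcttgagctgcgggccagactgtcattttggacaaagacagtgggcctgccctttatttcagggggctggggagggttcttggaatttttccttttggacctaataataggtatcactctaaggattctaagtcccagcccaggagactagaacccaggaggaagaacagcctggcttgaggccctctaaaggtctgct
Oas3: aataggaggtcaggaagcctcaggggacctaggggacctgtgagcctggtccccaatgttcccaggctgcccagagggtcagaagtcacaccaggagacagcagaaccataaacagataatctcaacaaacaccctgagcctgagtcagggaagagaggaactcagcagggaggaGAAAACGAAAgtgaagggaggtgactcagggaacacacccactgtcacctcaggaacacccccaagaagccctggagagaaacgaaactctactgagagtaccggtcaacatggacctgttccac
Phf11d: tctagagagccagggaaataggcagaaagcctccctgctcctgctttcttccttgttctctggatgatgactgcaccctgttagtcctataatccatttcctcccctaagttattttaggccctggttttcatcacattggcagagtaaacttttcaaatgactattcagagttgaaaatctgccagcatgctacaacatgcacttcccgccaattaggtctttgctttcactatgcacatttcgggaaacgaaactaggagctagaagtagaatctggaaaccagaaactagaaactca
Isg15 held 3 overlapping matches, Ifi205 held 2, Oas3 held 1, and Phf11d and all 3 entries of Isg20 held none. RefSeq entries were found for 34 of the 47 members, with 42 promoters in all. The ISRE letters were in 21 of these 42 (50.0%), which belong to 19 genes, and in 3.44% of all 32841 promoters of that length. The letters TTCNNNGAA of the STAT-binding GAS element, also on both strands, were in 7 of the 42 (16.7%) and in 8.3% of all promoters. A match is a description of the letters and no evidence of binding. The members lie on 15 chromosomes and partly in clusters: all 4 Ifit genes are on chromosome 19, all 5 genes of the Oas family are on chromosome 5, and Ifi203, Ifi204 and Ifi205 are on chromosome 1. Near-identical neighbours can share reads, so single values of Ifit3 and Ifit3b, the Ifi203 to Ifi205 genes, Trim30a and Trim30d, Phf11b and Phf11d, Mx1 and Mx2, the Slfn genes and the Oas genes are uncertain.

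Plates held 18 to 59 cells and 2810321 to 10120557 UMIs (unique molecular identifiers, each standing for 1 captured transcript). Cells were classed by their UMIs of 3 marker genes that are not in the list: 170 Ccr7+ cells (the marker of mature, migratory dendritic cells), 149 Xcr1+ Ccr7- cells (the immature cDC1 marker), 49 C1qa+ cells without the other 2 markers (a macrophage gene), and 187 cells with none of the 3. Other markers followed the classes: Clec9a, another cDC1 marker, was detected in 55.0% of Xcr1+ Ccr7- cells and 15.9% of Ccr7+ cells, Fscn1, a maturation gene, in 55.3% of Ccr7+ cells and 1.34% of Xcr1+ Ccr7- cells, and C1qb in 85.7% of C1qa+ cells. The T cell gene Cd3e was detected in 8 of the 555 cells, the B cell gene Cd79a in 1 and the melanocyte gene Mlana in 2, while Col1a1, a fibroblast gene, had UMIs in 127. Of the 49 C1qa+ cells, 10 came from Irf1_FF 2 and 16 from Irf1_dXCR1 1, so the label cDC1 does not cover all the cells.

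Most cells expressed some of the genes and a minority expressed most of them. A cell had UMIs of 14 members at the median, with a range from 0 to 42, and of 13 after each cell was thinned to 20000 UMIs, which left out 12 cells. No member was detected in 7 cells, 1 to 5 members in 97 cells, and 36 or more in 32 cells. At least 24 members were detected in 139 cells (25.0%, or 21.7% after thinning). The counts filled the range between these ends without a gap: 107 cells had 6 to 10 members, 93 had 11 to 15, 73 had 16 to 20 and 60 had 21 to 25.

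**Figure D1:**
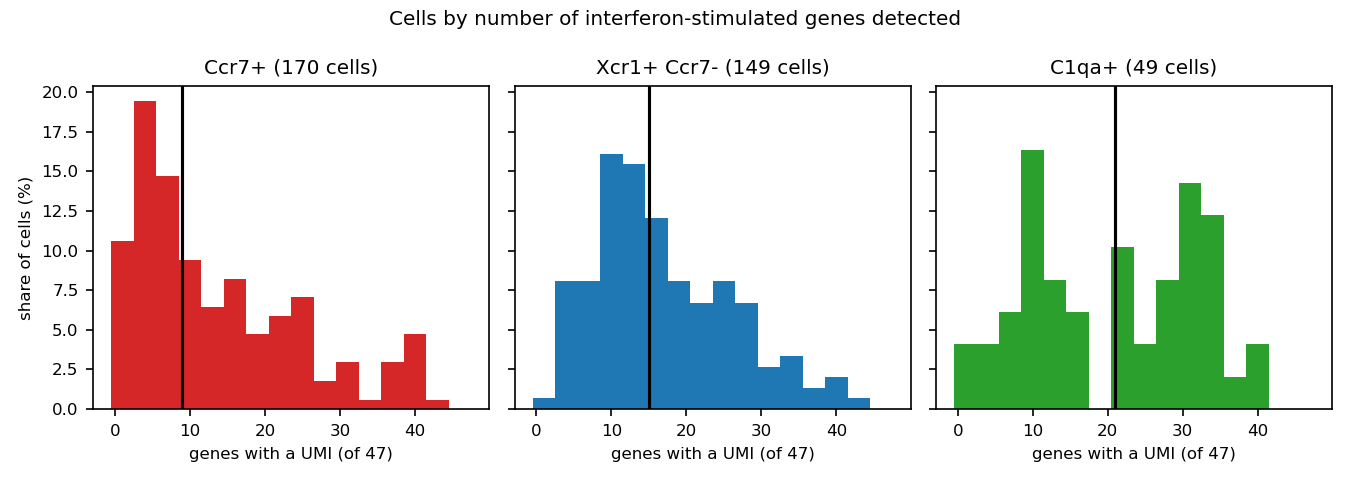
Share of cells (vertical axis, percent) by the number of the 47 genes with a UMI (horizontal axis, bins of 3 genes) in Ccr7+, Xcr1+ Ccr7- and C1qa+ cells; the black line is the median of the cells, at 9, 15 and 21 genes. Ccr7+ cells crowd at the low end with a tail reaching 42 genes, Xcr1+ Ccr7- cells have a single broad peak, and C1qa+ cells lie at both low and high numbers.

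The classes differed in the shape of this distribution, as the plot of cells by number of genes detected shows. Ccr7+ cells were mostly low with a high tail. Their median was 9 members (9 after thinning), 30.0% had 5 or fewer, and 20.6% had 24 or more (16.6% after thinning). Within that tail, 14 of the 170 Ccr7+ cells had 36 or more members and 3 had 31 to 35. Xcr1+ Ccr7- cells were seldom so low: their median was 15 members (13 after thinning), 8.72% had 5 or fewer, and 24.8% had 24 or more (20.1% after thinning). The median depth was 132930 UMIs in Ccr7+ cells and 187354 in Xcr1+ Ccr7- cells. C1qa+ cells had a median of 21 members before and after thinning at a median depth of 120065 UMIs, and 44.9% had 24 or more (42.6% after thinning). These values pool cells of unlike plates, and the order of the classes was not the same in each. Of the 49 C1qa+ cells, 16 were from Irf1_dXCR1 1 and 7 from Ikbkb_dXCR1 4, plates with high medians over all their cells (21 and 24). In Irf1_FF the C1qa+ median was 12 against 14 in Xcr1+ Ccr7- cells, and in Irf1_FF 2 both were 14.

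Genes of the list split by how widely they were detected. In more than 50% of the 555 cells were 11 members: Ly6e (77.5%), Ifi205 (77.3%), Ifitm3 (71.7%), Phf11b (61.1%), Ifi35 (59.8%), Bst2 (57.1%), Ifi204 (56.9%), Ifi27l2a (54.2%), Xaf1 (52.3%), Zbp1 (51.7%) and Isg15 (50.5%). All 3 membrane proteins of the list, Bst2 (tetherin, which holds budding virus at the cell), Ifitm3 (which blocks virus entry) and Ly6e, are among them. Another 23 members were in 20 to 50% of cells, and 13 were in under 20%. The oligoadenylate synthase family ranged from 10.6% (Oas2) to 34.2% (Oas1a), the Ifit family from 17.3% (Ifit3b) to 28.6% (Ifit2), and the 4 genes of the PARP group, which modify proteins with ADP-ribose or ubiquitin, from 11.7% (Parp12) to 23.1% (Parp14). The share of a gene's UMIs in its highest cells largely follows from how many cells had the gene, which were 45 for Cmpk2 and 430 for Ly6e. It is given as a description and is no separate result. The 28 cells with the most UMIs of a gene held a median of 23.4% of its UMIs for the widely detected members, 40.9% for the middle ones and 69.2% for the rare ones, from 13.5% for Ly6e to 96.4% for Cmpk2, an enzyme of nucleotide metabolism.

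Each member's count rose with the number of other members detected in the same cell. Each gene's count after thinning to 20000 UMIs was rank-correlated with the number of other members detected in the same thinned cell. Over the 163 Ccr7+ cells used, the correlation ranged from 0.153 for Dtx3l to 0.678 for Ifi204, with a median of 0.495. Over 149 Xcr1+ Ccr7- cells it ranged from 0.171 for Ddx58, an RNA sensor, to 0.647 for Isg15, with a median of 0.404. These describe cells that share plates and were thinned to equal depth, and they carry no test. No such correlation was computed for genes outside the list, so the values do not show a trait of the list. The number of genes detected per cell, before thinning, had plate medians from 705 (Irf1_dXCR1 2) to 2241 (Irf1_dXCR1 5). UMIs of 5 bases allow 1024 different tags, and Ly6e, Ifi205 and Ifitm3 reached 941, 942 and 956 UMIs in a cell. Their highest cells are understated. To a lesser degree this also holds for other members, such as Ifit2, Isg20, Usp18 and Isg15. Their highest counts were 787, 755, 682 and 582 UMIs.

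Between Ccr7+ and Xcr1+ Ccr7- cells of the same plates, Isg15 was higher and Ifi205 lower in Ccr7+ cells, and no other member passed the test. Counts were summed per plate and class over the 11 plates with at least 5 cells of both, and CPM from here on are those of sums over cells, scaled by TMM normalization (trimmed mean of M values). In a sum, fewer expressing cells and less RNA per cell cannot be told apart. Isg15 was at 238 CPM in the lowest plate, 564 at the median and 1536 in the highest in Ccr7+ cells, and at 30.8, 234 and 626 CPM in Xcr1+ Ccr7- cells. The ranges overlap between plates, but within a plate Isg15 was higher in Ccr7+ cells in 11 of 11, by 1.70 ± 0.34 (SE) on the log2 scale (edgeR quasi-likelihood test with the plate as a block, Benjamini-Hochberg adjusted p = 0.00555). The share of cells with an Isg15 UMI was close in the 2 classes, 51.2% of Ccr7+ and 47.7% of Xcr1+ Ccr7- cells (51.5% and 44.3% after thinning). The median single-cell CPM in cells with an Isg15 UMI was 1274 against 343. Ifi205 was at 606, 1182 and 2383 CPM (lowest, median, highest) in Ccr7+ cells and at 960, 1864 and 2626 CPM in Xcr1+ Ccr7- cells. It was lower in Ccr7+ cells in 10 of 11 plates, with a log2 difference of -0.47 ± 0.11 (edgeR, adjusted p = 0.0275); 61.8% of Ccr7+ and 94.6% of Xcr1+ Ccr7- cells had a UMI of it. Ly6e, with 1266 ± 650 CPM (SD, n = 11) in Ccr7+ and 1909 ± 664 in Xcr1+ Ccr7- cells, was also lower in 10 of 11 plates and did not pass (edgeR, adjusted p = 0.0782).

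Of all 47 members, 33 had a log2 difference above 0 between these classes, and 2 passed in either direction. Over all 11235 genes tested, 2.12% passed (1.7% higher and 0.418% lower in Ccr7+ cells) and 41% lay above 0. The median log2 difference was 0.38 for the members and -0.33 for all genes. That balance depended on the cells taken: with at least 10 cells per plate and class 22 members were higher and 25 lower, and with a marker gate of 10 UMIs 22 were higher and 25 lower. With the 10-UMI gate Isg15 differed by 1.36 and no longer passed, nor did it with a minimum of 3 cells (1.52), and without Irf1_dXCR1 1 or without Irf1_FF 1, 1 member passed in place of 2. Genes of the wider pathway also differed between the classes. Ccr7+ cells had higher Stat3 (548 ± 175 against 161 ± 94.2 CPM, edgeR adjusted p = 0.0109), Irf1 (546 ± 232 against 146 ± 105, edgeR adjusted p = 0.0413), Cd274, which encodes PD-L1 (528 ± 304 against 66.2 ± 80.3, adjusted p = 0.0109) and Gbp2, a guanylate-binding protein induced by interferon gamma (360 ± 184 against 84.7 ± 48.3, adjusted p = 0.0357). Of 20 interferon gamma targets 18 lay above 0 and 2 passed, of 19 receptor and signalling genes 12 lay above 0 and 2 passed, and of 12 sensors and adaptors 5 lay above 0 and none passed.

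C1qa+ cells could be compared within only 3 plates (Irf1_FF 2, Irf1_dXCR1 1 and Ikbkb_dXCR1 4), where most members were higher than in Xcr1+ Ccr7- cells and none passed the test. Lgals3bp, a secreted glycoprotein, was at 1436, 1393 and 1439 CPM in the C1qa+ cells of these plates, in that order, and at 224, 409 and 383 CPM in the Xcr1+ Ccr7- cells. The groups do not overlap, and the log2 difference was 2.12 ± 0.36 (edgeR, adjusted p = 0.135). Oasl2, an oligoadenylate synthase-like protein, was at 804, 992 and 912 CPM in C1qa+ cells and at 36.6, 42.4 and 275 CPM in Xcr1+ Ccr7- cells, again without overlap (3.63 ± 0.74, edgeR adjusted p = 0.213). Ifitm3 was at 2864, 4105 and 2911 against 819, 1687 and 1899 CPM (1.24 ± 0.26, edgeR adjusted p = 0.238). Rtp4, which encodes a chaperone of G protein-coupled receptors, had no UMI in the Xcr1+ Ccr7- cells of 2 of the 3 plates and was at 1188 to 1913 CPM in the C1qa+ cells. Over all cells it had a UMI in 67.3% of C1qa+, 22.9% of Ccr7+ and 11.4% of Xcr1+ Ccr7- cells.

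Of the 46 members tested in this comparison, 39 lay above 0 (45.2% of genes did), and 16 had an unadjusted p under 0.05, all higher, where 3.12% of the 7594 genes tested did. By edgeR 0.0395% of the genes passed the adjusted threshold, and DESeq2 called 20 of the members. The median log2 difference was 1.25 for the members and -0.15 for all genes. With a minimum of 3 cells per plate and class 5 members passed, and without Ikbkb_dXCR1 4, 2 passed. Against Ccr7+ cells of the same 3 plates, 33 of 47 members lay above 0 (46.5% of genes did) and none passed by edgeR (9 at an unadjusted p under 0.05, all higher, where 3.07% of genes were, and 9 by DESeq2), where 0.306% of 7516 genes passed. There Ly6e had 2675 ± 473 against 1092 ± 806 CPM (SD, n = 3; edgeR adjusted p = 0.30), and Ifit3 840 ± 72.0 against 225 ± 110 CPM (edgeR adjusted p = 0.327), both without overlap, while Isg15 had 772 ± 407 against 920 ± 632 CPM. Of the 20 interferon gamma targets, 14 of 17 tested lay above 0 against Xcr1+ Ccr7- cells and none passed.

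**Figure D2:**
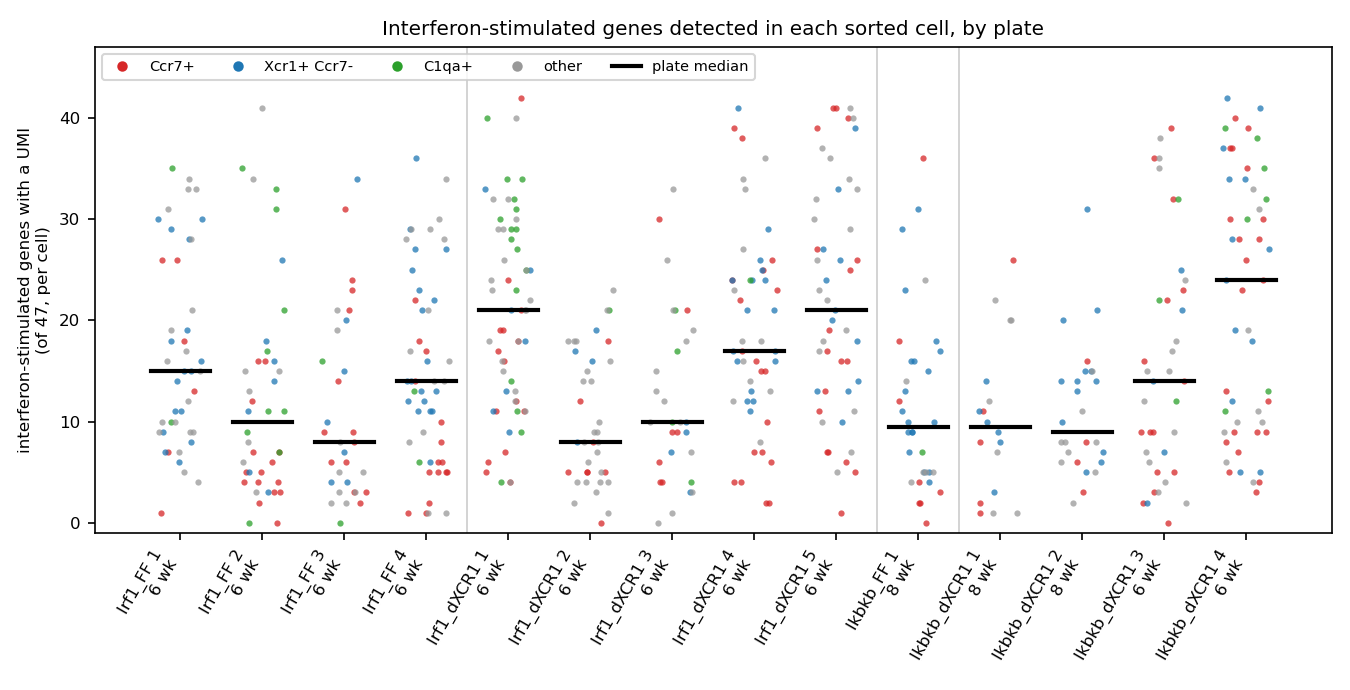
Number of the 47 genes with a UMI in each cell (vertical axis) by plate (horizontal axis, with genotype and mouse age in weeks); points are cells coloured by class and black bars are plate medians. The medians run from 8 to 15 in Irf1_FF, 8 to 21 in Irf1_dXCR1 and 9 to 24 in Ikbkb_dXCR1, and the Ikbkb_FF plate has 9.5.

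Loss of Irf1 in XCR1-expressing cells went with higher means of most members, and no member passed the test. The plot of genes detected by plate gives the cells, the heat map of plates the levels, and the plot of fold changes the fit. The median number of members per cell was 15, 10, 8 and 14 in the Irf1_FF plates (11.8 ± 3.30, SD, n = 4) and 21, 8, 10, 17 and 21 in the Irf1_dXCR1 plates (15.4 ± 6.11, n = 5). The groups overlap: Irf1_dXCR1 2 and 3 lie with the controls, while Irf1_dXCR1 1, 4 and 5 are above all of them. After thinning the plate medians were 13, 9.5, 6 and 13 against 20, 8, 9, 16 and 19. The plates also differed in genes detected per cell before thinning. The medians were 2208, 1093.5, 1092 and 1981 genes in Irf1_FF and 1577, 705, 1275, 2003 and 2241 in Irf1_dXCR1. The part of this in the number of members was not tested. The mean of log2(CPM + 1) over cells and members was 3.02, 2.36, 2.03 and 2.78 in Irf1_FF and 4.05, 2.06, 2.31, 3.56 and 4.11 in Irf1_dXCR1. The same 3 plates are above the control range, and the group means of 2.55 ± 0.44 and 3.22 ± 0.97 (SD) differ by less than the SD of the Irf1_dXCR1 plates. The members took 1.21, 1.43, 1.18 and 1.30% of the UMIs in Irf1_FF and 2.22, 1.59, 1.27, 1.75 and 1.78% in Irf1_dXCR1.

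Isg20 was at 165, 172, 189 and 241 CPM in the Irf1_FF plates and at 612, 692, 395, 625 and 435 CPM in the Irf1_dXCR1 plates. All Irf1_dXCR1 plates are above all Irf1_FF plates, with a log2 difference of 1.52 ± 0.48, and the gene did not pass (edgeR over 5 against 4 plates, adjusted p = 0.519). Ifi27l2a, a mitochondrial or nuclear envelope protein of the ISG12 family, was at 436, 324, 374 and 439 against 1039, 467, 581, 489 and 678 CPM, and Xaf1, a pro-apoptotic zinc finger protein, at 425, 517, 420 and 463 against 904, 688, 543, 595 and 714 CPM. These 3 were the members whose plates do not overlap, and all 3 were higher, where 0.679% of the 16203 genes tested were higher without overlap. Ifi205 (1234 ± 405 against 1819 ± 277 CPM, SD), Usp18, which removes ISG15 from proteins (334 ± 73.0 against 634 ± 213), and Ifitm3 (1349 ± 190 against 2136 ± 579) had overlapping plates and adjusted p = 0.519 by edgeR. Phf11b was at 624 ± 186 and 633 ± 164 CPM, and Ly6e at 1702 ± 538 and 1990 ± 500.

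In all, 39 of 47 members lay above 0, against 47.3% of all 16203 genes, with a median log2 difference of 0.47 for the members and -0.00 for all genes. None passed by edgeR (5 at an unadjusted p under 0.05, all higher, where 2.52% of genes were; 0 by DESeq2), and of all genes tested 0% passed. By role, all 5 genes of the Oas family, all 4 Ifit genes and all 3 membrane proteins lay above 0, while 2 of 5 RNA sensors, 2 of 8 antiviral effectors and 1 of 4 PARP group genes lay below. Without Irf1_dXCR1 1, the plate with 16 C1qa+ cells, 33 of 47 members lay above 0 and the median was 0.32, and without all C1qa+ cells 41 of 47 did and the median was 0.54. The summed macrophage markers spanned 1157 to 4405 CPM in Irf1_FF and 779 to 4649 in Irf1_dXCR1 (11 of 11 genes detected in each). The monocyte markers spanned 1419 to 2129 and 1617 to 3619 CPM (8 and 9 of 9). Fibroblast or endothelial markers spanned 147 to 6905 and 333 to 4379 CPM (9 of 9 in each). Xcr1+ Ccr7- cells were 49 of 165 in Irf1_FF and 44 of 223 in Irf1_dXCR1. Cells with none of the 3 class markers were 51 and 90. The part of these differences in the members' levels was not tested.

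**Figure D3:**
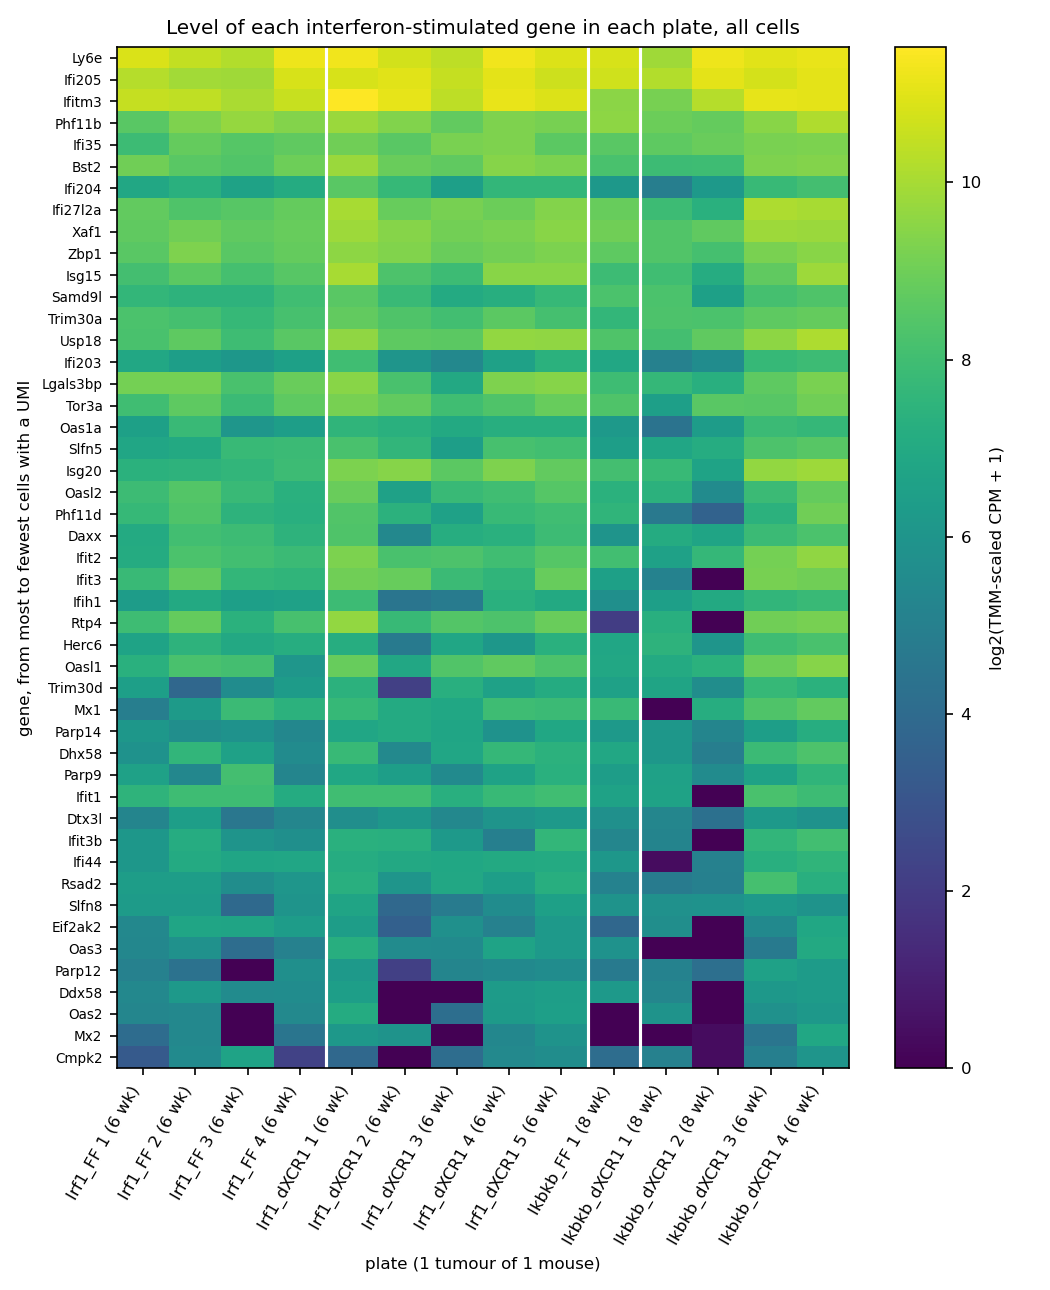
Level of each of the 47 genes (rows, from most to fewest cells with a UMI) in each of the 14 plates (columns), as log2(CPM + 1) of counts summed over all cells of a plate, TMM-scaled; white lines separate genotypes. The 8-week Ikbkb_dXCR1 columns are darker than the 6-week ones in most rows, and Irf1_dXCR1 1 is bright in most rows.

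Within classes the pattern by Irf1 genotype was similar in count and likewise short of the threshold. In Ccr7+ cells (5 against 4 plates) 41 of 47 members lay above 0 (49.6% of genes did) and none passed by edgeR (1 at an unadjusted p under 0.05, higher, where 5.46% of genes were, and 0 by DESeq2; 0% of 11786 genes passed). Ifitm3 was at 316 to 1087 CPM in Irf1_FF and 1113 to 2728 in Irf1_dXCR1, without overlap (1.36 ± 0.37, edgeR adjusted p = 0.386). Zbp1, a sensor of Z-form nucleic acid, was at 178 to 402 against 448 to 718 CPM, Bst2 at 268 to 431 against 440 to 785, and Ifi27l2a at 123 to 474 against 479 to 681. These 4 were the members higher without overlap, where 0.382% of genes were, and Dtx3l, chosen for naming after its values were seen, was lower without overlap, at 33.8 to 61.2 against 0 to 32.6 CPM, where 0.501% of genes were. In Xcr1+ Ccr7- cells (3 against 4 plates) 39 members lay above 0 (47.9% of genes did) and none passed by edgeR (3 at an unadjusted p under 0.05, all higher, where 3.31% of genes were, and 1 by DESeq2; 0% of 12048 genes passed). Ifi27l2a was at 173 to 321 CPM in Irf1_FF and 607 to 854 in Irf1_dXCR1 (1.49 ± 0.51, edgeR adjusted p = 0.685), Usp18 at 170 to 440 against 622 to 894, Ifitm3 at 802 to 1139 against 1666 to 2063, Isg15 at 31.7 to 273 against 424 to 645, and Xaf1 at 274 to 358 against 467 to 651. With Dhx58, an RNA helicase named after its values were seen (0 to 128 against 139.7 to 144 CPM), these are the 6 members higher without overlap, where 2.22% of genes were. The plate median of members per cell was 10 to 15 in Irf1_FF and 18 to 21 in Irf1_dXCR1 for the Xcr1+ Ccr7- cells of plates with at least 5 of them, and 5 to 15.5 and 5 to 16.5 for Ccr7+ cells. Irf1_dXCR1 2 and 3, which had 4 Xcr1+ Ccr7- cells each, were not in that fit; their cells had medians of 16.5 and 8.

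Whether the genotype difference itself differed between the classes was tested as an interaction over the 7 Irf1 plates with at least 5 cells of both. No member passed by edgeR (3 at an unadjusted p under 0.05, where 0.979% of genes were higher, and 1 by DESeq2), and 0% of 10523 genes did. Above 0 were 36 of 47 members and 59.9% of all genes. Ifitm3 differed by 0.90 ± 0.40 more in Ccr7+ cells on the log2 scale (edgeR adjusted p = 1). In C1qa+ cells no fit with at least 5 cells per plate was possible, because Irf1_FF and Irf1_dXCR1 had 1 such plate each. The C1qa+ cells of these plates had medians of 14 members (Irf1_FF 2) and 28.5 (Irf1_dXCR1 1), 2 values with no replicate. With a minimum of 3 cells, 22 of 46 members lay above 0 over 2 Irf1_dXCR1 plates and 1 Irf1_FF plate, with a median log2 difference of -0.08, and none passed (edgeR). With all C1qa+ cells without Ccr7, those with Xcr1 included, 2 Irf1_dXCR1 plates against 4 Irf1_FF plates gave 35 of 46 above 0 and a median of 0.36, so the direction depended on the cells taken, and none passed (edgeR).

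The genes upstream of the list showed no call by Irf1 genotype. UMIs of interferon genes themselves were rare, with Ifnb1 in 1 of 555 cells, Ifng in 2, Ifna4 in 5 and Ifna2 in 7. Irf7, which amplifies interferon transcription, was at 760 ± 157 CPM in Irf1_FF and 1418 ± 533 in Irf1_dXCR1 (edgeR adjusted p = 0.519), Irf8, the lineage factor of cDC1, at 1117 ± 203 and 880 ± 179, and Irf1 at 342 ± 100 and 228 ± 108 CPM. Of 19 receptor and signalling genes 8 lay above 0, of 12 sensors and adaptors 5, and of 20 interferon gamma targets 7, none of them past the threshold. Among the last, Tap1, a peptide transporter of antigen presentation, was at 756 ± 75.2 and 524 ± 121 CPM and Psmb9, an immunoproteasome subunit, at 1304 ± 267 and 1175 ± 295.

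Ikbkb_dXCR1 had 4 plates against a single control plate, and no member passed. The median number of members per cell was 9.5 in Ikbkb_FF and 9.5, 9, 14 and 24 in Ikbkb_dXCR1, the members took 1.18% of UMIs against 1.01, 1.03, 2.02 and 2.33%, and the mean of log2(CPM + 1) was 2.19 against 1.87, 2.04, 3.05 and 4.22. The 8-week plates lie at or below the control and the 6-week plates above it. By the fit 41 of 47 members lay above 0 (47.6% of all genes did) and none passed by edgeR (1 at an unadjusted p under 0.05, where 2.03% of genes were higher, and 2 by DESeq2; 0% of 16203 genes passed). Trim30a, a TRIM family regulator of innate signalling, was at 196 CPM in the control and 311 to 451 CPM in the 4 Ikbkb_dXCR1 plates, and Daxx, a histone chaperone, at 61.3 against 105 to 306. Both are among 6 members higher without overlap, where 6.91% of genes were. Ifitm3 (744 against 569 to 2194 CPM), Usp18 (324 against 274 to 1103) and Ifi27l2a (464 against 158 to 1107) overlapped, with the control within the Ikbkb_dXCR1 range. The control is 8 weeks old, and with the 8-week plates alone 15 members lay above 0 and 32 below, with a median log2 difference of -0.38 in place of 0.60. In Ccr7+ cells (3 against 1 plates) 30 members lay above 0 (56.4% of genes did) and none passed by edgeR, where 0.144% of 11786 genes did; 1 had an unadjusted p under 0.05 (3.44% of genes were higher by that rule) and DESeq2 called 3. In Xcr1+ Ccr7- cells (4 against 1) 28 lay above 0 (43.6% of genes did) and none passed by edgeR, where 0% of 12048 genes did; 1 had an unadjusted p under 0.05 (0.448% of genes were higher by that rule) and DESeq2 called 4. Ikbkb itself was at 291 CPM in the control and 239 ± 87.8 CPM (SD, n = 4) in Ikbkb_dXCR1. The C1qa+ cells of the control plate number 1, so no comparison was made.

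Among the Ikbkb_dXCR1 mice, every member had a lower fitted level in the 2 plates from 8-week mice than in the 2 from 6-week mice, and 4 fell by the test. Ifi27l2a was at 238 and 158 CPM at 8 weeks and at 1107 and 1024 CPM at 6 weeks, and it fell by 2.43 ± 0.38 on the log2 scale (edgeR, 2 against 2 plates with the spread shared over 14, adjusted p = 0.0248). Isg20 was at 218 and 103 against 802 and 924 CPM and fell by 2.43 ± 0.41 (edgeR adjusted p = 0.0318). Phf11d was at 24.5 and 11.5 against 170 and 522 CPM and fell by 4.26 ± 0.75 (edgeR adjusted p = 0.0379). In all 3 both 8-week plates are below both 6-week plates, as the plot of CPM by age shows, and the 2 plates of an age are closest for Ifi27l2a. Oas3 had no UMI in any of the 44 8-week cells and was at 25.9 and 126 CPM in the 6-week plates, with a UMI in 16 of 89 cells (edgeR adjusted p = 0.0337). A count of 3 over the 8-week plates would be 0.468 CPM.

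**Figure D4:**
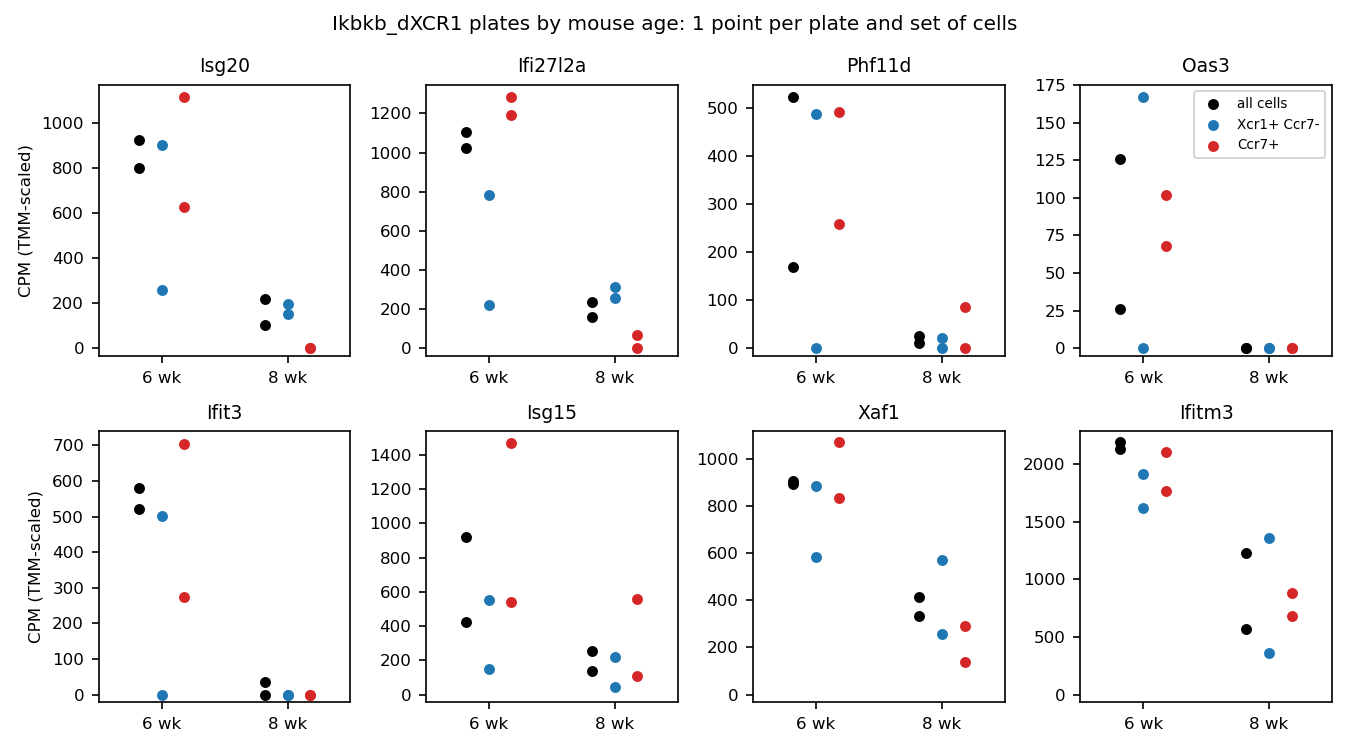
CPM (vertical axis, TMM-scaled, with its own range for each gene) of 8 members in the Ikbkb_dXCR1 plates by mouse age in weeks (horizontal axis); each point is 1 plate, in black for all cells, blue for Xcr1+ Ccr7- cells and red for Ccr7+ cells. For all cells the 8-week plates lie below the 6-week plates in each of the 8 genes, while in Xcr1+ Ccr7- cells the ages overlap for Ifi27l2a, Isg15, Phf11d, Oas3 and Ifit3, the last 3 with 0 in a 6-week plate.

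The 4 members that fell stand against 0.111% of 16203 genes that were called lower (0.117% in either direction), and 25 members had an unadjusted p under 0.05, all lower (4.67% of genes). Plates of the 2 ages did not overlap for 40 members, all lower, where 16% of genes were lower without overlap, and all 47 lay below 0 where 30.8% of all genes lay above it. The median log2 difference was -1.50 for the members and 0.00 for all genes. Members that did not pass include Xaf1 (373 ± 56.4 against 900 ± 9.89 CPM, SD, n = 2; edgeR adjusted p = 0.143), Ifitm3 (896 ± 463 against 2161 ± 46.4, adjusted p = 0.299) and Usp18 (347 ± 103 against 930 ± 246, adjusted p = 0.45). Some widely detected members were close between the ages: Ifi205 was at 1183 and 2154 CPM at 8 weeks against 1749 and 2112, and Ly6e at 953 and 2374 against 2082 and 2280, both with overlapping plates. Without overlap were all 4 Ifit genes, 4 of 5 Oas genes, all 4 PARP group genes and 4 of 5 RNA sensors. So were 6 of 8 antiviral effectors, 2 of 3 membrane proteins and 2 of 3 HIN-200 genes. The same held for all 3 genes of ISG15 conjugation and removal and for 11 of 12 other members.

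**Figure D5:**
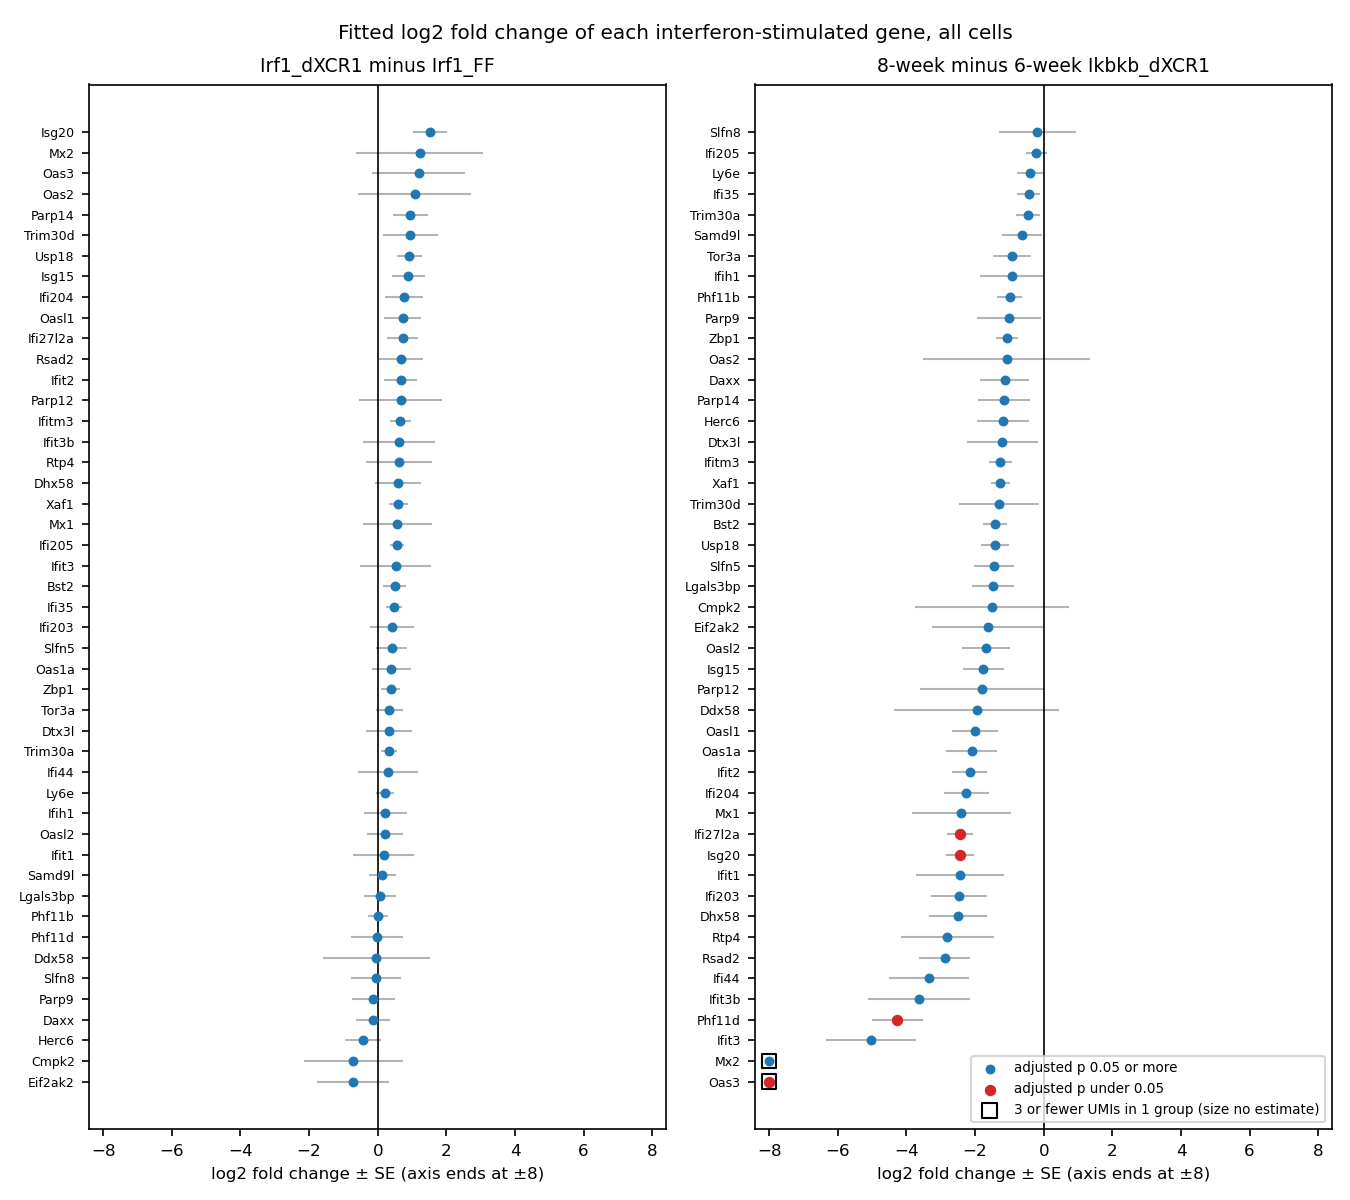
Fitted log2 fold change ± SE of each member between Irf1_dXCR1 and Irf1_FF (left) and between 8-week and 6-week Ikbkb_dXCR1 plates (right), over all cells; red points passed an adjusted p of 0.05. Squares mark genes with 3 or fewer UMIs in 1 group, whose size is no estimate; Mx2 and Oas3 lie beyond the axis end at -8 and are drawn there without bars. On the left 39 of 47 points are above 0 and none is red, and on the right all 47 are below 0 and 4 are red.

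Cells with many members were scarce at 8 weeks, as the plot of genes detected by plate shows. At least 24 members were detected in 39.3% of 89 cells at 6 weeks (34.9% after thinning) and in 4.55% of 44 cells at 8 weeks (2.33% after thinning), and 35 or more in 16 and 0 cells. Cells with 5 or fewer were 16.9% and 20.5%. The median depth was 150882 UMIs per cell at 6 weeks and 140053 at 8 weeks. The 2 plates of 6 weeks differ: Ikbkb_dXCR1 4 had a median of 24 members and 51.0% of cells with 24 or more, and Ikbkb_dXCR1 3 had 14 and 23.7%. The 8-week plates had 9.5 and 9 members and 5.56% and 3.85%.

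The makeup of the plates differed with age as well. The 6-week plates held 10 C1qa+ cells and the 8-week plates none, and Ccr7+ cells were 37 of 89 and 9 of 44. Summed macrophage markers were at 959 to 1762 CPM at 8 weeks (9 of 11 genes detected) and 3371 to 3683 CPM at 6 weeks (11 of 11), monocyte markers at 1139 to 1155 and 3073 to 3255 CPM (7 of 9 in each), and immature cDC1 markers at 4891 to 6681 and 3798 to 4730 CPM (10 of 10 in each). Mature dendritic cell markers were at 2867 to 3622 and 4118 to 4615 CPM (10 of 10 in each), plasmacytoid dendritic cell markers, which include the member Bst2, at 289 to 339 and 732 to 736 CPM (3 of 7 in each), and cDC2 markers at 0 to 185 and 200.5 to 305 CPM (3 and 4 of 7). NK cell markers were at 577 to 841 and 969 to 1027 CPM (1 of 6 in each) and T cell markers at 55.0 to 410 and 44.9 to 47.2 CPM (8 and 4 of 8). None of these 8 lists overlapped between the ages. The remaining lists did: B cell markers at 276 to 592 and 278 to 356 CPM, and fibroblast or endothelial markers at 71.2 to 214 and 105 to 766. Neutrophil markers were at 0 and 0 to 32.6 CPM, and melanoma markers at 0 and 0 to 11.2. Of single genes over all cells, 16% were lower at 8 weeks without overlap. The 8-week plate Ikbkb_dXCR1 1 stood apart in its mitochondrial share (2.30%, against 0.949 to 1.18% in the other 3 plates) and its spike-in share (6.94%, against 3.92 to 5.02%). The part of these differences in the members' levels was not tested. Without the C1qa+ cells 3 members fell and all 47 stayed below 0, with a median of -1.45. Within Ccr7+ cells (9 against 37 cells, at least 4 per plate) all 47 lay below 0 and 3 fell, where 0.204% of 11751 genes were called lower: Isg20 had no UMI at 8 weeks and was at 626 and 1115 CPM at 6 weeks (edgeR adjusted p = 2.58e-06), Ifit3 had none and was at 705 and 275 CPM (adjusted p = 0.00683), and Ifi27l2a was at 66.3 and 0 against 1194 and 1283 CPM (adjusted p = 0.00683). The 8-week plates held 5 and 4 Ccr7+ cells, so a level of 0 there rests on few cells. Over all plates, 31.8% of Ccr7+ cells had a UMI of Isg20. Irf1_FF 1, from a 6-week mouse and with 6 Ccr7+ cells, also had 0 CPM of Isg20 in that class, against a median of 424 CPM over 11 plates. Plates of the 2 ages did not overlap for 33 members in Ccr7+ cells, where 19.8% of genes were lower without overlap. Within Xcr1+ Ccr7- cells (19 against 18 cells) 43 lay below 0 with a median of -1.33, 14 were lower without overlap (8.96% of genes were), and none passed (0% of 12048 genes were called lower).

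Of the wider pathway, 19 of 20 interferon gamma targets lay below 0 at 8 weeks and 1 fell: Iigp1, an immunity-related GTPase, had no UMI at 8 weeks and 167 ± 22.8 CPM (SD, n = 2) at 6 weeks (edgeR adjusted p = 0.00458). Of 19 receptor and signalling genes 14 lay below 0, with Irf7 at 430 ± 6.97 against 1562 ± 431 CPM (edgeR adjusted p = 0.136) and Irf8 at 1158 ± 360 against 1206 ± 274, and of 12 sensors and adaptors 8 lay below 0; none of these passed. The calls rest on both 6-week plates and on the spread of the other groups: without Ikbkb_dXCR1 3 or without Ikbkb_dXCR1 4 no member passed, without Ikbkb_dXCR1 2, 7 did, and none passed with the 4 plates fitted alone, while all 47 lay below 0 in each of these fits. Without Ikbkb_dXCR1 1, 5 passed and 45 lay below 0. Age and whatever else set these 2 pairs of mice apart cannot be told apart.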

How the data were processed

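The deposited table held whole-number counts of unique molecular identifiers per gene and cell, which the authors made from 5' end reads with bcl2fastq, STAR 2.5.3a and HTSeq 0.9.1 on GRCm38, per the submitters' processing notes. The deposited annotation gave plate, genotype, age and, as fractions computed by the authors, each cell's share of mitochondrial and spike-in counts. Replicates were numbered in accession order. Members and lists were chosen with earlier results of these data known. All 555 cells were kept, doublets were not called, and 12 cells under 20000 UMIs were left out of thinned values. A gene was detected at 1 UMI.

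Counts were summed per plate, or per plate and class with at least 5 cells, and tested over all genes with edgeR 4.0.16 (R 4.3.3; TMM, low-count filter, quasi-likelihood test, Benjamini-Hochberg adjusted p under 0.05), with plates of all groups sharing the spread; class comparisons within plates had the plate as a block. The test was checked on simulated data. Alternatives used DESeq2 1.42.0 and limma 3.58.1, and descriptions Python 3.11.15. P-values measure the spread between mice, and in class comparisons the spread between mice of the difference between classes. For Ikbkb and for age the spread rests largely on plates of other groups.

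Named were, per comparison, up to 12 members per direction past the threshold (the 6 with the smallest p where fewer than 2 passed), the 8 most abundant members, the targeted gene, and up to 3 genes past the threshold, or the 2 most abundant, of each pathway list. Members not named are given by counts.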

Additional observations from a re-analysis of the deposited data

Results flagged for a closer look

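Among 63 groups of 4 or 5 plates checked, 1 had a plate far from the others. Oas2, an oligoadenylate synthase, had 0 CPM in Irf1_FF 3 and 37.9 to 41.4 CPM in the other Irf1_FF plates (4 plates in all). Chance flags about 1 in 20 such groups.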

How the results depend on the processing

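Of the main values under the alternatives, 132 were the same, 18 had more calls, 10 fewer and 4 moved. Those that were the same include comparisons with no call in either fit. Of the values of single called genes under the alternatives, 49 still passed, 35 no longer passed and none changed sign. The balance of members did turn in places: the median log2 difference ran from -0.38 to 0.84 for Ikbkb in all cells (15 to 44 members higher), from -0.41 to 0.62 in Xcr1+ Ccr7- cells (14 to 41), and from -0.06 to 0.47 between Ccr7+ and Xcr1+ Ccr7- cells (22 to 34). DESeq2 called 2 members for Ikbkb in all cells, 3 in Ccr7+ and 4 in Xcr1+ Ccr7- cells, 1 for Irf1 in Xcr1+ Ccr7- cells, 1 for the interaction, 10 between Ccr7+ and Xcr1+ Ccr7- cells, 20 and 9 for C1qa+ against Xcr1+ Ccr7- and Ccr7+ cells, and 14 for age. For Ikbkb, 1 was called in Ccr7+ cells with only the plates compared and 1 in Xcr1+ Ccr7- cells with at least 10 cells. Between Ccr7+ and Xcr1+ Ccr7- cells, upper-quartile factors and at least 10 cells gave 1 each, and leaving out 1 plate 1 to 3. For C1qa+ against Xcr1+ Ccr7- cells, no filter gave 2, at least 3 cells 5, and leaving out 1 plate 0 to 2. Against Ccr7+ cells these gave 2 and 4, and all C1qa+ cells without Ccr7 gave 1. For age, limma with cells weighted equally, Xcr1+ Ccr7- cells alone and the 4 plates alone gave 0 each, and leaving out 1 plate 0 to 7. With log2(CPM + 10) the mean levels were 4.93, 5.38, 4.72 and 5.11 in Irf1_FF, Irf1_dXCR1, Ikbkb_FF and Ikbkb_dXCR1. The cause of these changes was not tested.

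No paired analysis was possible because replicate numbers of the genotypes come from accession order and tie no mice together. The class comparison used the plate as a block, and with no replicate block 1 member was called. Leaving out Ikbkb_FF 1, at least 10 cells for Ikbkb in Ccr7+ cells and for C1qa+ against Xcr1+ Ccr7- cells, and genotype in C1qa+ cells with at least 5 cells were not run, for lack of plates. The 8-week Ikbkb comparison, the fits without C1qa+ cells, the single classes for age and the 4 plates alone were chosen after seeing the data. Few cells per plate limit the precision of rare members.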
